A study of Mus musculus with 17 samples.

Results

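Marrow cells that the labels call bone marrow-derived monocytes were compared between mice with a mammary tumor and healthy mice. The comparison takes in 8 of the series' 17 libraries, chosen by their labels and by having counts against gene symbols: 4 from tumor-bearing mice (BMDM_T) and 4 from healthy mice (BMDM_H). Both groups are BALB/c mice, the injected ones females per the labels, and the marrow of both was flushed from tibia and femur, passed through red cell lysis and sorted as CD11b+ Gr1+ F4/80low cells. The BMDM_T mice had been injected with 100000 4T1-luc cells in the mammary fat pad and were used when their tumors measured 1 cm. 4T1 is a mammary carcinoma line from BALB/c mice, here with a luciferase gene. The BMDM_H mice carried no tumor. The label age is 8 weeks in BMDM_T and 12 weeks in BMDM_H, and the labels do not say whether it was taken at injection or at harvest. The series' design text calls healthy mice age-matched where it describes the mammary gland collection, and adds that marrow was taken in the same way. Tumor and label age differ together and cannot be told apart. The labels do not say whether a library holds 1 mouse or a pool, so the spread behind the p-values is that between samples and may be partly technical. Messenger RNA was counted by its 3' end, and 3 libraries of tumor-associated macrophages shared the fit without entering the contrast.

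The marrow makes neutrophils and monocytes from shared progenitors under the control of colony-stimulating factors. A neutrophil precursor fills its granules in order, first with azurophil proteins such as myeloperoxidase and elastase, then with specific granule proteins such as lactoferrin, and last with gelatinase and surface receptors. Granulocyte colony-stimulating factor, which signals through STAT3, drives this line, and 4T1 tumors are known to release it and to raise myeloid cell numbers in blood and spleen. The Gr1 antibody binds Ly6G of neutrophils and also Ly6C of monocytes, so the gate can hold both.

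Total counts over the genes with a symbol ran from 931278 to 1218977 in BMDM_T and from 387940 to 1286844 in BMDM_H, where libraries 3 and 4 were the shallowest. The first principal component of the 8 libraries held 33.5% of the variance and placed all BMDM_T libraries on one side and all BMDM_H libraries on the other. BMDM_T 1 stood apart for 8 of 2748 well expressed genes. In it 6 genes, among them Ptprc and Hprt, lay over 4 times below the lowest of the other 7 libraries, and 2 lay over 4 times above the highest. BMDM_H 4 had 2 such low genes, Rpl10 and Tpt1. Neutrophil granule markers stood far above monocyte markers in all 8 libraries. The specific granule list of 21 neutrophil genes summed to 105268 to 124721 CPM (counts divided by TMM-scaled library totals and brought to one common total) in BMDM_T and 119168 to 151039 CPM in BMDM_H, most of it from Camp, Ngp, Ltf and Lyz2 (the last also a gene of monocytes and macrophages), whereas the monocyte list of 30 genes summed to 6612 to 7361 and 8926 to 11474 CPM. The sorted cells are therefore called by their gate below. In bulk RNA, fewer cells of a type and less RNA per cell cannot be told apart.

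Of 7518 genes tested, 362 (4.82%) passed an adjusted p of 0.05 in edgeR's quasi-likelihood test, with 212 (2.82%) higher and 150 (2%) lower in BMDM_T. Changes of at least 2-fold made up 227 of them, 124 higher and 103 lower. The 4 BMDM_T libraries lay entirely above or below the 4 BMDM_H libraries for 841 genes (11.2%), among them 331 of the 362. With each marrow library left out in turn, 181 of the calls were kept throughout. The number of calls fell to 238 without BMDM_H 2, and the number lower in BMDM_T to 96 without BMDM_T 1, 96 without BMDM_H 1 and 95 without BMDM_H 2. Without BMDM_H 3 and 4 together 179 genes passed (2.29% of 7828 tested), 96 higher (1.23%) and 83 lower (1.06%), of which 163 were among the 362. With the replicate number as a block 662 genes passed (10.3% of 6405 tested), 380 higher (5.93%) and 282 lower (4.4%), and these included 326 of the 327 calls that could be tested that way. Scaling by total counts alone moved the median log2 fold change of all genes by -0.11 and turned the split to 155 higher and 218 lower, so 41.6% of calls were higher against 58.6% with TMM scaling. The median log2 fold change of 17 of 69 gene lists, each of at most 0.11 in size, took the other sign under that scaling. The lists, of functions and of cell type markers, hold 196 of the calls, and 166 lie in none.

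**Figure D1:**
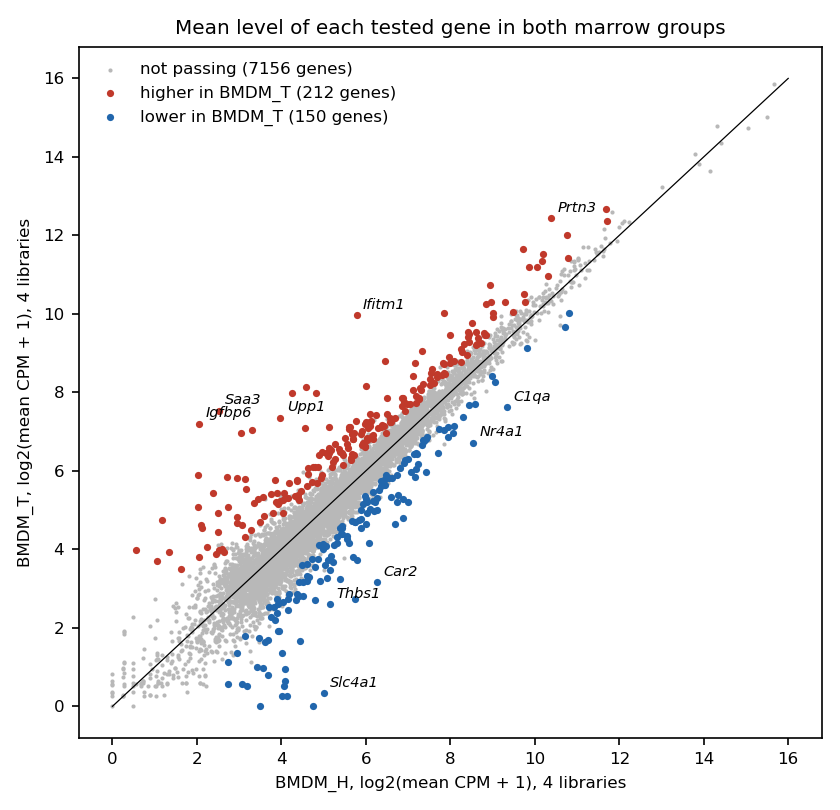
Each point is 1 of 7518 tested genes, placed by its mean level in BMDM_H (horizontal) and in BMDM_T (vertical), both as log2(mean CPM + 1) over 4 libraries. The 212 genes in red were higher and the 150 in blue lower in BMDM_T at an adjusted p of 0.05, the line marks equal levels, and 10 genes of the text are named.

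The largest rises were in genes of an acute-phase protein, secreted regulators, a uridine-cleaving enzyme and a metalloreductase. The largest rises and falls were taken among calls without overlap between groups, so their separation was a condition of the choice. The acute-phase apolipoprotein gene Saa3 stood at 251, 105, 231 and 152 CPM in BMDM_T 1 to 4 and at 2.39, 1.61, 1.86 and 13.0 CPM in BMDM_H 1 to 4. Its log2 fold change was 5.76 ± 0.43 (standard error, SE; adjusted p = 5.21e-08), and BMDM_H 4 held most of the healthy signal. Below, a value with ± in parentheses is the log2 fold change of BMDM_T over BMDM_H with its SE, n = 4 per group. Igfbp6, which binds insulin-like growth factors, was at 173, 125, 147 and 142 CPM in BMDM_T and 4.78, 0.804, 1.86 and 5.20 CPM in BMDM_H (log2 fold change 5.6 ± 0.36, adjusted p = 8.39e-09). The BMDM_T libraries lay close together for this gene, and no library of one group reached the other. Ggt1, a gamma-glutamyltransferase that splits extracellular glutathione, was at 194, 79.0, 126 and 94.7 CPM against 7.16, 4.83, 9.30 and 7.81 CPM. Ifitm1, an interferon-inducible membrane protein gene, was at 1575, 1003, 897 and 529.5 CPM against 80.4, 56.3, 42.8 and 36.4 CPM, and the chemoattractant gene Prok2 at 411, 166, 217 and 218 CPM against 14.3, 11.3, 26.0 and 20.8 CPM. For these 3 genes BMDM_T 1 was the highest library, and the groups did not overlap.

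Steap4, which reduces iron and copper at membranes, stood at 411, 303, 217 and 191 CPM in BMDM_T and 38.2, 32.2, 5.58 and 15.6 CPM in BMDM_H (log2 fold change 3.40 ± 0.31, adjusted p = 7.14e-07). It lies in mm10 at chr5 from 7960457 to 7982213 on the plus strand. Entpd3, an enzyme that removes phosphates from extracellular nucleotides (chr9 from 120539818 to 120568327 on the plus strand), was at 58.1, 33.6, 42.7 and 35.2 CPM against 6.37, 4.02, 3.72 and 2.60 CPM (log2 fold change 3.17 ± 0.37). Fam20c encodes the Golgi kinase that phosphorylates secreted proteins, and was at 85.1, 31.1, 62.3 and 47.8 CPM against 8.75, 6.43, 1.86 and 5.20 CPM (3.13 ± 0.38). The low-oxygen responsive gene Ankrd37 was at 52.8, 65.6, 70.4 and 32.5 CPM against 7.16, 8.04, 3.72 and 7.81 CPM (2.97 ± 0.31). In each of these 4 genes the lowest BMDM_T library exceeded the highest BMDM_H library, as the choice required. The 12 largest rises also held Upp1, Stfa3 and Vpreb2, described below with their groups. All 12 kept their call with each marrow library left out in turn and without BMDM_H 3 and 4.

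**Figure D2:**
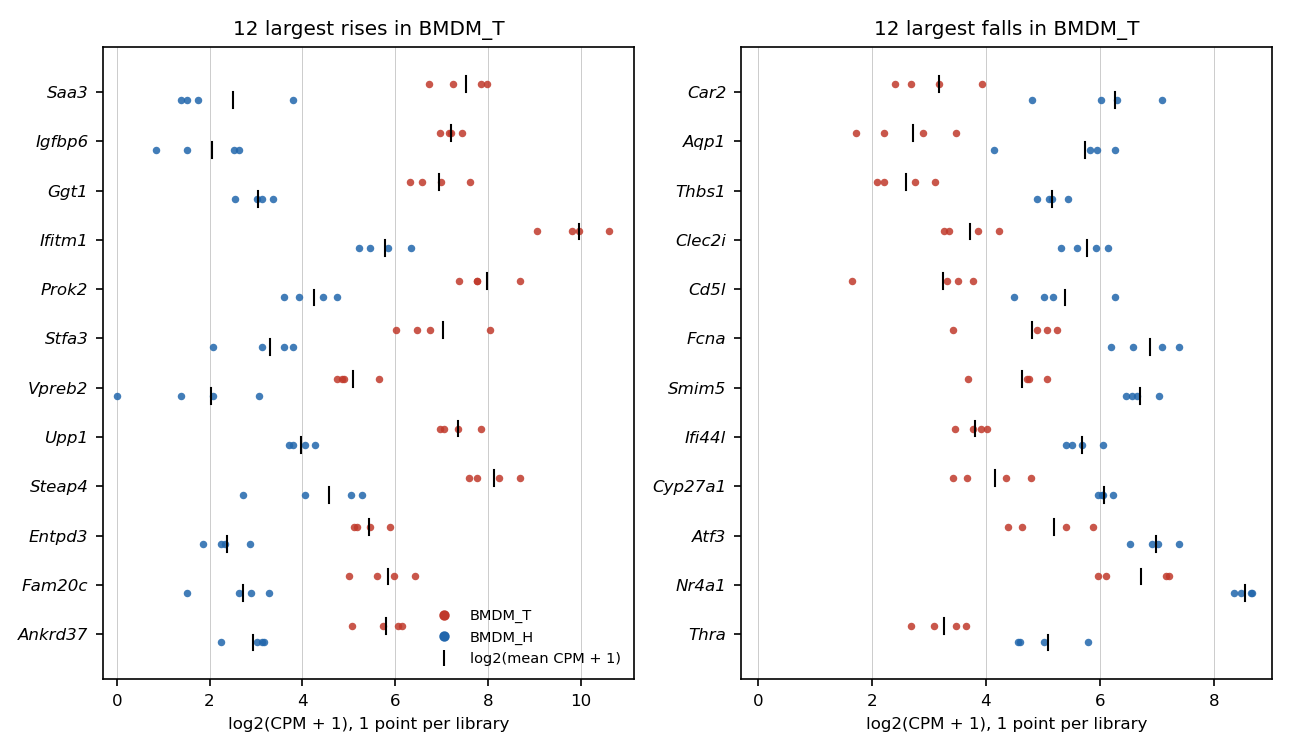
Each row is a gene and each point 1 library, on a log2(CPM + 1) axis, with BMDM_T in red, BMDM_H in blue and a bar at log2(mean CPM + 1). For each of the 12 largest rises (left) and the 12 largest falls (right) the points of the groups do not overlap, which was a condition for entering the plot.

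Promoters of the largest changes are shown because acute-phase and granulocyte genes are classic targets of C/EBP and STAT factors. The windows come from RefSeq on GRCm38.p6, run from 250 bases before to 50 bases after the start, and are read in the direction of the gene. In Saa3 the capitals mark 4 matches to TTNCNNAA, a loose form of the C/EBP motif, while Igfbp6 held no match to the C/EBP, STAT and GATA motifs searched.
Saa3 (chr7:46715627-46715926, minus strand): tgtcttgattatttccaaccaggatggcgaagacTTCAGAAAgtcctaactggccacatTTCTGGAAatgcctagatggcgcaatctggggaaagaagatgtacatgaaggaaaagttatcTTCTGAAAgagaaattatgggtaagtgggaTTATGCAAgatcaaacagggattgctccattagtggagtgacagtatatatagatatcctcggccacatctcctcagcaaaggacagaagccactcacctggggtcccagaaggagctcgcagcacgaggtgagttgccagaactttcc
Igfbp6 (chr15:102143936-102144235, plus strand): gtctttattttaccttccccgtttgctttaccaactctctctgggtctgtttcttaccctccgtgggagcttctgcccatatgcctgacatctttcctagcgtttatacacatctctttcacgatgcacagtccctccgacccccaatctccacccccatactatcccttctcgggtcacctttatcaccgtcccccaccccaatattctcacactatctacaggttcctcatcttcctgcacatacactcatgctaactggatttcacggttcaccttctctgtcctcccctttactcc
Motifs were searched on both strands in the 5851 tested genes with a window, 172 of them higher and 120 lower in BMDM_T. TTNCNNAA occurred in 35.9% of all these promoters, 38.4% of the higher and 44.2% of the lower ones. Its palindrome TTGCGCAA, which is also a TTNCNNAA match, occurred in 0.427% of all and in 0 of the 172 and 0 of the 120. A match is a description of letters and not a site.

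The 12 largest falls leave out called genes with fewer counts, some of which fell further. Among those were the red cell genes Alas2 (log2 fold change -5.31) and Epor (-4.52) and the macrophage gene Cbr2 (-3.77). Of the 12 falls 5 are on cell type lists: Car2 and Aqp1 of red cell precursors, Cd5l and Fcna of resident macrophages and Nr4a1 of monocytes. The summed lists moved with them, at 637 to 832 CPM in BMDM_T against 920.1 to 1309 CPM in BMDM_H for red cell precursors and 2391 to 2906 against 3226 to 4533 CPM for resident macrophages, and their part in the falls was not tested. Car2, a carbonic anhydrase of red cells and other marrow cells, was at 4.31, 14.3, 8.08 and 5.41 CPM in BMDM_T and 27.1, 63.5, 78.1 and 135 CPM in BMDM_H (log2 fold change -3.08 ± 0.43, adjusted p = 0.000131). Aqp1, the water channel of red cells, was at 6.46, 10.1, 2.31 and 3.61 CPM against 16.7, 61.1, 55.8 and 75.5 CPM (-3.07 ± 0.50, adjusted p = 0.00074). In both genes BMDM_H 1 was the lowest and BMDM_H 4 the highest healthy library, and the groups did not overlap. Thbs1, thrombospondin 1, a matricellular protein of platelets and monocytes (chr2 from 118111876 to 118127133 on the plus strand), fell from 42.2, 34.6, 33.5 and 28.6 CPM in BMDM_H to 3.23, 7.56, 5.77 and 3.61 CPM in BMDM_T (-2.78 ± 0.35, adjusted p = 3.52e-05). Here the 4 healthy libraries lay close together. Cyp27a1, a mitochondrial sterol 27-hydroxylase (chr1 from 74713574 to 74737892 on the plus strand), was at 9.69, 19.3, 26.6 and 11.7 CPM against 65.3, 74.0, 61.4 and 65.1 CPM (-2.0 ± 0.27). Clec2i, a C-type lectin-related ligand of NK receptors, was at 8.61, 17.6, 9.24 and 13.5 CPM against 69.2, 47.5, 39.1 and 59.9 CPM (-2.11 ± 0.28), and the small membrane protein gene Smim5 at 11.8, 26.1, 25.4 and 32.5 CPM against 99.5, 94.1, 87.4 and 130.1 CPM (-2.06 ± 0.25). Neither gene overlapped between groups. Cd5l and Fcna, both secreted by macrophages, fell as well (-2.10 ± 0.43 and -2.09 ± 0.37), together with the interferon-induced Ifi44l (-2.01 ± 0.23), the stress-induced factor Atf3 (-1.84 ± 0.28), the nuclear receptor Nr4a1 (-1.83 ± 0.24) and the thyroid hormone receptor Thra (-1.80 ± 0.35). The 12 falls kept their call in each leave-out of a marrow library, while Cd5l and Thra (adjusted p = 0.052 to 0.0641) lost it without BMDM_H 3 and 4.

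Nucleotide salvage recycles bases and nucleosides that are taken up or released from broken nucleic acids. Of 27 tested genes on this list 4 rose, none fell, and the list median was 0.00 against -0.01 for all genes (-0.10 against -0.12 with total-count scaling). Upp1, uridine phosphorylase 1, which splits uridine into uracil and ribose 1-phosphate, stood at 231, 163, 125 and 132 CPM in BMDM_T and 18.3, 12.1, 13.0 and 15.6 CPM in BMDM_H (log2 fold change 3.44 ± 0.26, adjusted p = 6.57e-08). It lies in mm10 at chr11 from 9118103 to 9136170 on the plus strand. Slc28a2, a sodium-coupled carrier of purine nucleosides and uridine (chr2 from 122426477 to 122461137 on the plus strand), was at 76.4, 40.3, 40.4 and 55.0 CPM against 16.7, 10.5, 5.58 and 20.8 CPM (2.0 ± 0.31, adjusted p = 0.000459). Both genes were higher in every BMDM_T library than in any BMDM_H library. The nucleotidase gene Nt5c3 was at 153, 111, 56.6 and 60.4 CPM against 57.3, 29.0, 27.9 and 20.8 CPM, with the lowest BMDM_T library just under the highest BMDM_H library (1.39 ± 0.32, adjusted p = 0.0115, and 0.0583 without BMDM_H 2). Guanine deaminase, Gda, was at 198, 52.1, 47.3 and 67.7 CPM against 47.8, 26.5, 20.5 and 46.8 CPM, and BMDM_T 1 alone lay far above the rest (1.36 ± 0.39, adjusted p = 0.0495, and 0.0521 to 0.238 with BMDM_T 1 and BMDM_H 1, 2, 3 and 4 left out in turn). Without BMDM_H 3 and 4 the passing members were Upp1 and Slc28a2, as Nt5c3 had an adjusted p = 0.129 and Gda 0.195. The abundant salvage enzyme Aprt was at 745 to 1271 CPM in BMDM_T and 731 to 1033 CPM in BMDM_H and did not pass (adjusted p = 0.56). Hprt was at 8.61, 87.4, 68.1 and 55.0 CPM against 79.6, 117, 74.4 and 57.3 CPM (adjusted p = 0.388), with the low value in BMDM_T 1. Samhd1, which breaks down deoxynucleotides, was at 397 to 489.8 against 530.0 to 721 CPM (adjusted p = 0.126, and 0.02 with the replicate block, where it was lower in BMDM_T). Of 18 tested genes of nucleotide synthesis from small precursors none passed in edgeR, DESeq2 or limma-voom, and 4 had an unadjusted p under 0.05.

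Cytokine feedback genes restrain the signals that induce them, as SOCS proteins do for receptors that use JAK kinases. Of 34 tested members 5 rose and none fell (list median 0.06, or -0.05 with total-count scaling). Socs3, the brake on STAT3 signaling below gp130 and the G-CSF receptor (chr11 from 117966079 to 117970047 on the minus strand), stood at 508, 450.5, 472 and 339 CPM in BMDM_T and 93.9, 98.1, 83.7 and 70.3 CPM in BMDM_H (log2 fold change 2.32 ± 0.20, adjusted p = 2.73e-07). Il1r2, the decoy receptor that binds interleukin 1 without signaling (chr1 from 40074079 to 40125231 on the plus strand), was at 382, 263, 237 and 252 CPM against 65.3, 53.1, 66.9 and 67.7 CPM (2.18 ± 0.23, adjusted p = 6.08e-06). Each BMDM_T library exceeded every BMDM_H library by a wide margin in both genes. Bcl3, an inhibitor family member that binds NF-kB subunits in the nucleus, was at 153, 103, 147 and 129 CPM against 53.3, 49.1, 37.2 and 49.4 CPM (1.46 ± 0.18). Zfp36l1, which speeds decay of AU-rich messages, was at 43.1, 33.6, 41.6 and 37.0 CPM against 10.3, 17.7, 14.9 and 20.8 CPM (1.35 ± 0.25). Groups did not overlap in these genes either. Socs2 was sparse, at 8.61, 22.7, 10.4 and 9.92 CPM against 0.796, 4.02, 0 and 7.81 CPM (2.28 ± 0.58, adjusted p = 0.0222, and 0.0573 to 0.103 with BMDM_T 2 and BMDM_H 1 and 3 left out in turn, and 0.053 without BMDM_H 3 and 4). The related genes Cish (9.02 to 21.9 against 3.98 to 10.4 CPM, adjusted p = 0.0773) and Socs1 (17.3 to 23.5 against 19.3 to 28.6 CPM, adjusted p = 0.726) did not pass.

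The promoters of Socs3 and Il1r2 are shown because each holds a match to the STAT motif TTCNNNGAA, in capitals, which 2 of the 4 called feedback genes with a window contained. The motif occurred in 8.14% of all promoters searched, in 12.2% of the higher genes (21 of 172) and in 6.67% of the lower ones (8 of 120). The windows of Bcl3, Zfp36l1, Stat3 and Prok2 were looked up for the same motif, held no match and are not shown. Both windows shown are at the start that RefSeq's table uses. In both genes it lies inside the span given above, downstream of the first annotated start.
Socs3 (chr11:117969317-117969616, minus strand): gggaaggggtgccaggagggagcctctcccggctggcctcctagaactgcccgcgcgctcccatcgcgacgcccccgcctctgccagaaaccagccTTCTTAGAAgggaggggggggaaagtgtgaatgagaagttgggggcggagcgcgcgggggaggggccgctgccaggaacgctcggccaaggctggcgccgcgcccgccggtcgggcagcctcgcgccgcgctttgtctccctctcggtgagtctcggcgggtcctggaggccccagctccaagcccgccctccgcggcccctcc
Il1r2 (chr1:40085843-40086142, plus strand): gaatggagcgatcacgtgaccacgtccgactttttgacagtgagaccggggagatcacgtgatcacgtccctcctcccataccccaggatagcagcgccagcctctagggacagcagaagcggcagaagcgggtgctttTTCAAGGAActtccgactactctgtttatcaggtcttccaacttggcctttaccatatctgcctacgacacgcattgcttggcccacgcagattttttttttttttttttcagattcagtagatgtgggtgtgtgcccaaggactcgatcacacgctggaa
These windows were picked after their genes' values were seen.

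Of 36 tested cytokine receptors 6 rose and 2 fell. Csf2rb, the common beta chain that signals for GM-CSF, interleukin 3 and interleukin 5, and Csf2rb2, the mouse beta chain for interleukin 3 alone, rose to between 199.7 and 306 CPM from between 78.1 and 152 CPM (0.91 ± 0.20, adjusted p = 0.00855) and to between 16.2 and 28.6 CPM from between 5.58 and 9.65 CPM (1.62 ± 0.32, adjusted p = 0.0037), and as close relatives they may share reads. Csf3r, the G-CSF receptor, was at 652, 851, 568 and 429 CPM against 554, 306, 272 and 260.2 CPM, where BMDM_H 1 reached into the BMDM_T range (0.83 ± 0.23, adjusted p = 0.0441, and 0.06 to 0.145 with BMDM_T 1, 2 and 3 and BMDM_H 2, 3 and 4 left out in turn). The other receptors that rose were Il10rb (0.63 ± 0.17; adjusted p = 0.0371, and 0.0616 to 0.125 with BMDM_T 1 and 2 and BMDM_H 1, 3 and 4 left out in turn) and Il13ra1 (1.17 ± 0.31; adjusted p = 0.0281, and 0.0583 to 0.096 with BMDM_T 1 and 2 and BMDM_H 2, 3 and 4 left out in turn). Il10ra, the ligand-binding chain for interleukin 10, fell (-0.71 ± 0.18; adjusted p = 0.0201, and 0.0514 to 0.105 with BMDM_T 2 and BMDM_H 1 and 4 left out in turn), as did the erythropoietin receptor Epor. Stat3 itself was at 379, 259, 326 and 365 CPM against 208, 182, 212 and 216 CPM, without overlap (0.71 ± 0.18, adjusted p = 0.0208, and 0.0575 to 0.08 with BMDM_T 1 and 4 and BMDM_H 2 left out in turn). Pim1, a kinase gene induced by STAT signaling, was at 202, 74.0, 129 and 196 CPM against 78.0, 64.3, 57.6 and 70.3 CPM, with BMDM_T 2 inside the healthy range (1.14 ± 0.26, adjusted p = 0.0116). Without BMDM_H 3 and 4 the calls of Csf2rb, Csf3r, Il10rb, Il13ra1, Il10ra, Stat3 and Pim1 (adjusted p = 0.0911 to 0.362) were lost.

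Secreted signals changed in both directions, with 6 of 37 tested cytokines and growth factors higher and 2 lower, and with the replicate block 7 of 25 rose and 4 fell. Besides Igfbp6 and Prok2, rises were in Mif, macrophage migration inhibitory factor, to between 131 and 185 CPM from between 41.4 and 65.1 CPM (1.59 ± 0.19, adjusted p = 2.5e-05), and Tnfsf14, also called LIGHT, to between 126 and 159 CPM from between 42.8 and 53.3 CPM (1.53 ± 0.17, adjusted p = 9.9e-06). Il1b, the inflammatory cytokine that the decoy receptor Il1r2 binds, was at 1628, 1771, 1048 and 638 CPM against 816, 491, 349.6 and 346 CPM, and the groups overlapped (1.33 ± 0.29, adjusted p = 0.00793, and 0.153 without BMDM_H 3 and 4). Csf1, the growth factor of macrophages, was at 73.2, 77.3, 53.1 and 59.5 CPM against 24.7, 11.3, 9.30 and 49.4 CPM (1.64 ± 0.44, adjusted p = 0.0308, and 0.0609 to 0.143 with BMDM_T 1 and 2 and BMDM_H 1, 2 and 3 left out in turn, and 0.0546 without BMDM_H 3 and 4). Tnfsf13b, the B cell survival factor BAFF, fell to between 16.2 and 31.1 CPM from between 48.4 and 85.3 CPM (-1.43 ± 0.30, adjusted p = 0.0059). The related Tnfsf12 fell too (-0.80 ± 0.22; adjusted p = 0.0393, and 0.0723 to 0.144 with BMDM_T 1, 2 and 3 and BMDM_H 1, 2 and 4 left out in turn, and 0.0946 without BMDM_H 3 and 4).

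Of 17 tested serine proteases 3 rose and none fell. Prtn3, proteinase 3, was at 5503, 3895, 6774 and 6079.8 CPM in BMDM_T and 1355, 1313, 1525 and 1158 CPM in BMDM_H (log2 fold change 2.06 ± 0.18, adjusted p = 5.03e-07). Elane, neutrophil elastase, was at 459.7, 361, 486 and 423 CPM against 172, 109, 171 and 119.7 CPM (1.59 ± 0.18, adjusted p = 1.57e-05), and cathepsin G, Ctsg, at 628, 558, 499 and 435 CPM against 175, 195, 206 and 59.9 CPM (1.69 ± 0.23, adjusted p = 0.000114). The 3 genes had no overlap between groups, and BMDM_H 4 was the lowest library for Ctsg. All are azurophil granule proteins, and the azurophil list, which holds them, summed to 9006 to 11523 CPM in BMDM_T and 2628 to 3905 CPM in BMDM_H. Of 17 tested metalloproteases 1 rose, Mmp9, the gelatinase of late neutrophil granules, from 1160.4, 1119, 1244 and 1116 CPM in BMDM_H 1 to 4 to 3524, 2625, 1784 and 2396 CPM in BMDM_T 1 to 4 (1.15 ± 0.26, adjusted p = 0.0109, and 0.098 without BMDM_H 3 and 4). Mmp8, the neutrophil collagenase, was at 236 to 1133 against 211 to 396 CPM and did not pass (adjusted p = 0.333). Among metalloproteases 1 of 12 rose and 1 fell with the replicate block.

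Of 24 tested cathepsins and other intracellular proteases 3 rose, and with the replicate block 3 of 22 rose and 2 fell. Asprv1, an aspartic protease known from skin and neutrophils, was at 1661, 872, 952 and 678 CPM against 253, 171, 269.6 and 229 CPM (2.18 ± 0.25, adjusted p = 1.22e-05). Ctsd, the lysosomal aspartic protease cathepsin D, was at 3049, 2046, 2075 and 2172 CPM against 1101, 898, 1077 and 1166 CPM (1.14 ± 0.19, adjusted p = 0.000732). Both separated the groups, with BMDM_T 1 the highest library. Casp4, the inflammatory caspase that senses lipopolysaccharide in the cytosol, was at 23.5 to 68.9 against 9.30 to 25.5 CPM and overlapped (1.32 ± 0.36, adjusted p = 0.0379, and 0.075 to 0.144 with BMDM_T 1 and 2 and BMDM_H 2, 3 and 4 left out in turn, and 0.201 without BMDM_H 3 and 4). Protease inhibitors changed with 3 of 22 tested members higher and 1 lower, and with the replicate block 7 of 17 rose and 1 fell. The higher ones are cysteine protease inhibitors of the stefin A cluster, whose near-identical copies may share reads, so their separate values are uncertain. Stfa3 was at 262, 63.9, 106 and 87.5 CPM against 3.18, 11.3, 13.0 and 7.81 CPM (3.94 ± 0.48, adjusted p = 2.5e-05). BC100530 was at 568, 30.3, 217 and 189 CPM against 29.4, 14.5, 31.6 and 33.8 CPM (3.28 ± 0.57), with BMDM_T 2 inside the healthy range. Stfa2 spread more widely, at 123, 7.56, 285 and 129 CPM against 15.1, 12.9, 40.9 and 20.8 CPM (2.73 ± 0.62; adjusted p = 0.0115, and 0.0509 to 0.0646 with BMDM_T 3 and BMDM_H 1 and 2 left out in turn). Serpinb6a, a serine protease inhibitor of the cytosol, fell (-0.78 ± 0.22, adjusted p = 0.0438, and 0.0716 to 0.142 with BMDM_T 1, 3 and 4 and BMDM_H 1, 3 and 4 left out in turn, and 0.164 without BMDM_H 3 and 4).

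Among solute carriers 4.72% of the tested members passed, near the 4.82% of all tested genes. Of 127 tested 4 rose and 2 fell (list median -0.03). With the replicate block 8 of 95 rose and 2 fell, where 5.93% of all genes rose and 4.4% fell in that fit. Slc2a1, the glucose transporter GLUT1, was at 91.5, 72.3, 63.5 and 44.2 CPM in BMDM_T and 19.9, 17.7, 29.8 and 39.0 CPM in BMDM_H (log2 fold change 1.5 ± 0.26, adjusted p = 0.00134). Slc16a3, the lactate exporter MCT4, was at 1125, 777, 728 and 881 CPM against 402, 314, 376 and 362 CPM (1.27 ± 0.21, adjusted p = 0.000957). Both carriers were higher in every BMDM_T library than in any BMDM_H library. The third carrier to rise was the nucleoside carrier Slc28a2 given above. Slc22a20, an organic anion transporter gene, was at 20.8 to 28.9 against 7.44 to 15.9 CPM (1.17 ± 0.32, adjusted p = 0.0441, and 0.0551 to 0.141 with BMDM_T 1, 2, 3 and 4 and BMDM_H 2, 3 and 4 left out in turn, and 0.212 without BMDM_H 3 and 4). Slc25a26, the mitochondrial carrier of S-adenosylmethionine, was at 1.80 to 3.46 against 6.37 to 10.4 CPM (-1.56 ± 0.46, adjusted p = 0.0494, and 0.0575 to 0.117 with each of the 8 marrow libraries left out in turn, and 0.158 without BMDM_H 3 and 4). Slc4a1, the band 3 anion exchanger of red cells, had 1 count over all BMDM_T libraries and 92 over all BMDM_H libraries, a ratio of 110 (95% interval 19.3 to 4394, counting error only). Of 48 tested channels, pumps and aquaporins 3 fell and none rose. They were Aqp1, Car2 and another carbonic anhydrase gene of red cells, Car1 (at 0 to 4.2 against 7.16 to 23.3 CPM). All 3 belong to the red cell list as well, whose sums are given above. With the replicate block 3 of 36 rose and 2 fell on this list, beside the block shares of all genes given above. Of 20 tested ABC transporters none passed in edgeR, DESeq2 or limma-voom, and 4 had an unadjusted p under 0.05. At a share of 4.82%, 0 calls in 20 genes says little. The list median was -0.26, with 5 members above zero. Its sums were 752 to 838 CPM in BMDM_T and 850 to 1033 CPM in BMDM_H.

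**Figure D3:**
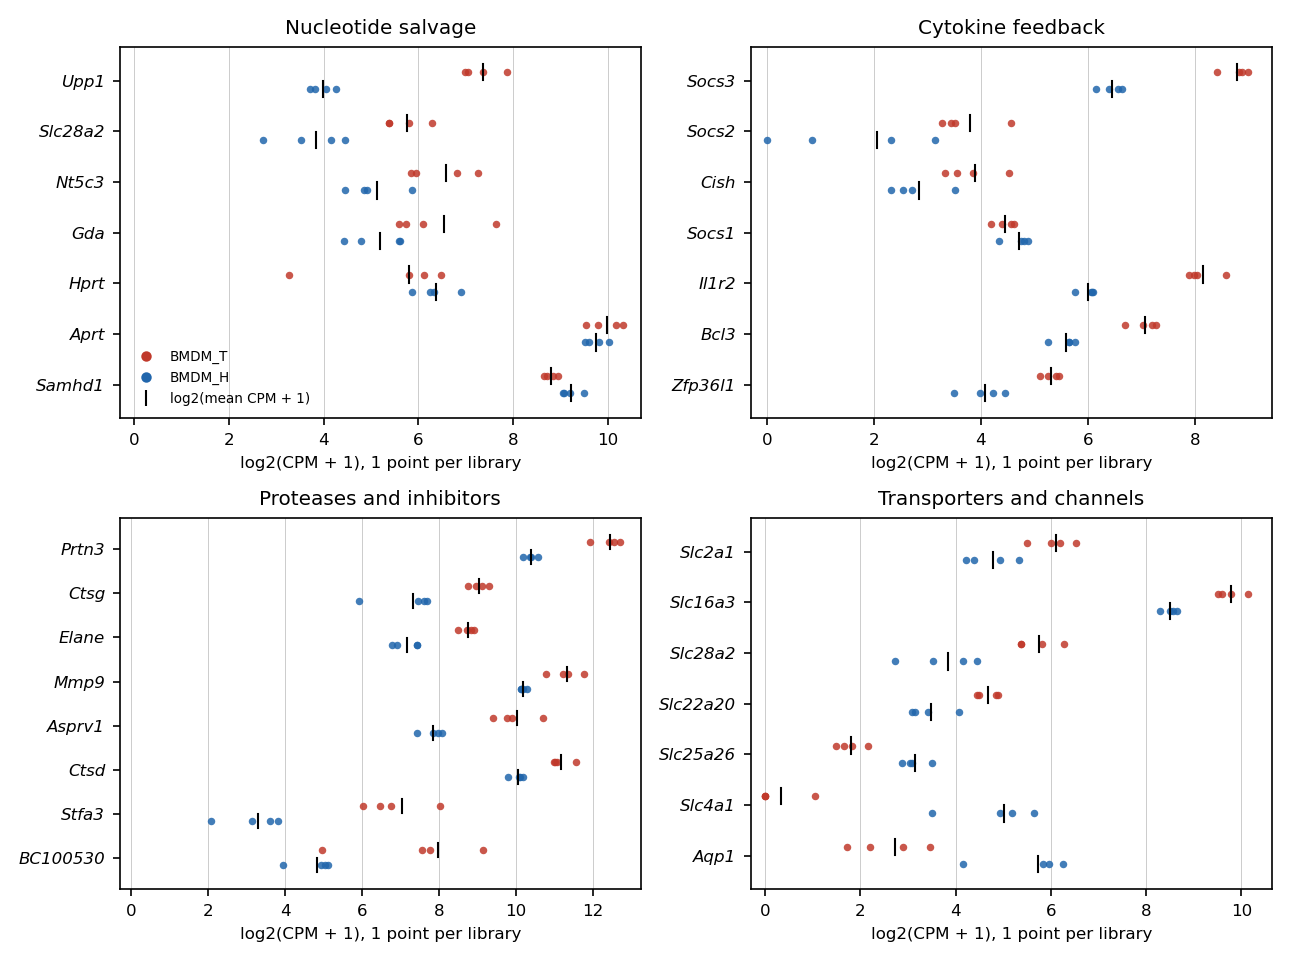
Points are libraries on a log2(CPM + 1) axis, with BMDM_T in red, BMDM_H in blue and a bar at log2(mean CPM + 1), for genes of 4 functions that passed the test and some that did not. Upp1, Socs3, Il1r2, Prtn3 and Slc16a3 separate the groups, whereas Gda, Cish, Hprt and Aprt overlap.

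Of 17 tested glycolysis genes 2 rose, both of them these glucose and lactate carriers, and Eno3, an enolase form of muscle, fell (-1.34 ± 0.28, adjusted p = 0.00556). The list median of 0.46 lay above that of all genes, and with the replicate block 9 of 16 rose and 1 fell. Of 16 tested hypoxia-responsive genes 6 rose and none fell. They were Ankrd37, Slc2a1, Mif, the mitophagy receptor Bnip3 (1.77 ± 0.39), the oxygen-sensing prolyl hydroxylase Egln3 (1.23 ± 0.30; adjusted p = 0.018, and 0.0522 to 0.0931 with BMDM_T 2 and BMDM_H 2 and 3 left out in turn) and Fam162a (0.85 ± 0.22; adjusted p = 0.029, and 0.0652 to 0.0877 with BMDM_T 1 and 2 and BMDM_H 1, 3 and 4 left out in turn). Leaving out BMDM_H 3 and 4 took the call from Bnip3, Egln3 and Fam162a (adjusted p = 0.0625 to 0.175).

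Glutathione and redox genes gave 4 rises and 1 fall among 39 tested, and with the replicate block 7 of 35 rose and 4 fell. Beside Ggt1, Gclm, the modifier subunit of the enzyme that starts glutathione synthesis, rose to between 98.3 and 178 CPM from between 40.9 and 66.8 CPM (1.25 ± 0.22, adjusted p = 0.00185). G6pdx, which supplies NADPH through the pentose phosphate route, was at 988, 622, 703 and 649 CPM against 507, 445, 340.3 and 255 CPM (0.92 ± 0.20, adjusted p = 0.00906, and 0.142 without BMDM_H 3 and 4). Thioredoxin, Txn1, rose as well (0.65 ± 0.17; adjusted p = 0.0296, and 0.0501 to 0.105 with BMDM_T 1, 2 and 3 and BMDM_H 1, 2 and 3 left out in turn), and the glutathione transferase Gsto1 fell (-0.85 ± 0.21; adjusted p = 0.0223, and 0.0558 to 0.0987 with BMDM_T 2 and 3 and BMDM_H 1 and 2 left out in turn). None of the 7 tested subunits of the phagocyte NADPH oxidase passed in edgeR, 1 was higher with DESeq2, and 2 had an unadjusted p under 0.05. Among them 1 of 7 rose and 0 fell with the replicate block.

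Lipid enzymes rose in small numbers. In the eicosanoid and phospholipase list 4 of 21 tested genes rose and none fell, and with the replicate block 5 of 16 rose and 1 fell. Pla2g7, which degrades platelet-activating factor, rose to between 218 and 322 CPM from between 126 and 167 CPM (0.81 ± 0.17, adjusted p = 0.00694), and Lpcat2, which makes it, to between 88.4 and 187 CPM from between 57.3 and 74.8 CPM (1.03 ± 0.22, adjusted p = 0.00633). The groups did not overlap in either gene. Alox5ap, the helper of leukotriene synthesis, rose as well (0.62 ± 0.16; adjusted p = 0.0254, and 0.0519 to 0.082 with BMDM_T 1, 2 and 3 and BMDM_H 2, 3 and 4 left out in turn), as did Ptges2 (0.93 ± 0.22; adjusted p = 0.0166, and 0.0662 to 0.0787 with BMDM_T 4 and BMDM_H 2 left out in turn). Of 21 tested lipase and lipid droplet genes 3 rose and 1 fell. Lipg, endothelial lipase, was at 81.8, 27.7, 58.9 and 66.8 CPM against 0.796, 3.22, 5.58 and 2.60 CPM (4.41 ± 0.48, adjusted p = 6.63e-06). With 234 counts over BMDM_T and 9 over BMDM_H, the size of the Lipg ratio is uncertain. Dgat2, which makes triglyceride, was at 307, 189.9, 196 and 227 CPM against 85.2, 94.9, 106 and 70.3 CPM (1.35 ± 0.18, adjusted p = 5.98e-05). Lipg and Dgat2 both separated the groups fully. Pnpla2, the lipase that breaks triglyceride down, rose too, with BMDM_T 4 just under BMDM_H 1 (0.99 ± 0.21, adjusted p = 0.00785), and the fatty acid carrier gene Fabp4 fell (-1.46 ± 0.40; adjusted p = 0.0355, and 0.0589 to 0.105 with BMDM_T 1 and 4 and BMDM_H 1, 2 and 4 left out in turn). Calls lost without BMDM_H 3 and 4 were those of Pla2g7, Lpcat2, Alox5ap, Ptges2, Pnpla2 and Fabp4 (adjusted p = 0.0783 to 0.234).

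Arginine and polyamine genes rose in 5 of 18 tested cases and fell in 1, and with the replicate block 4 of 13 rose and 0 fell. Without BMDM_H 1, 3 rose and none fell. Arg2, the mitochondrial arginase, was at 238, 138, 102 and 107 CPM against 75.6, 49.1, 76.2 and 46.8 CPM (1.22 ± 0.26, adjusted p = 0.0083, and 0.0628 without BMDM_H 3 and 4). Smox, which oxidises spermine, rose to between 104 and 136 CPM from between 40.9 and 72.4 CPM (1.01 ± 0.22, adjusted p = 0.00881, and 0.102 without BMDM_H 3 and 4). Nos2, inducible nitric oxide synthase, had 57 counts over BMDM_T and 1 count over BMDM_H, a ratio of 47.6 (95% interval 8.21 to 1915, counting error only). It was at 30.1, 5.04, 15.0 and 9.02 CPM in BMDM_T 1 to 4, and BMDM_T 1 was the highest library for both Arg2 and Nos2. Spermidine synthase, Srm (1.05 ± 0.26; adjusted p = 0.0204, and 0.0581 to 0.0932 with BMDM_T 4 and BMDM_H 1 and 3 left out in turn), and ornithine aminotransferase, Oat (0.71 ± 0.18; adjusted p = 0.0202, and 0.0597 to 0.0727 with BMDM_T 2 and BMDM_H 1 and 2 left out in turn), rose, and without BMDM_H 3 and 4 they did not pass (adjusted p = 0.118 and 0.0647). Padi2, which converts protein arginine to citrulline, fell (-1.99 ± 0.43; adjusted p = 0.00771, and 0.0509 without BMDM_H 1).

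Acute-phase and antimicrobial genes gave 7 rises and no fall among 26 tested, and with the replicate block 11 of 25 rose and 3 fell. Saa3 and Ifitm1 led. Relatives of Ifitm1 rose with it, Ifitm2 to between 982 and 1637 CPM from between 305 and 619 CPM (1.39 ± 0.22, adjusted p = 0.000461) and Ifitm6 to between 1779 and 3445 CPM from between 789 and 1264 CPM (1.32 ± 0.21, adjusted p = 0.00066). These genes resemble each other in sequence, and how shared reads were counted is not given in the sources used here. The calcium-binding gene S100a6 was at 7508, 6718, 6384 and 5476 CPM against 3231, 2663, 4192 and 3029 CPM (0.99 ± 0.18, adjusted p = 0.00226). Haptoglobin, Hp, which captures free hemoglobin, was at 6059, 4740.2, 5077 and 5219 CPM against 3642, 2768, 3851 and 3164 CPM (0.65 ± 0.18; adjusted p = 0.0362, and 0.0551 to 0.118 with BMDM_T 1, 3 and 4 and BMDM_H 1, 2 and 4 left out in turn, and 0.122 without BMDM_H 3 and 4). S100a1 rose as well (0.77 ± 0.18; adjusted p = 0.0161, and 0.0583 to 0.0643 with BMDM_T 1 and BMDM_H 3 left out in turn, and 0.0948 without BMDM_H 3 and 4). S100a9, the most abundant transcript in 7 of the 8 marrow libraries (Camp was in BMDM_H 2), was at 55524 to 63605 CPM in BMDM_T and 32714 to 65390.0 CPM in BMDM_H and did not pass (adjusted p = 0.712).

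Of 34 tested chemokines and chemoattractant receptors 3 rose and 2 fell, and with the replicate block 6 of 23 rose and 3 fell. Without BMDM_T 4, 5 rose. Cxcr2, the receptor by which neutrophils answer CXC chemokines and leave the marrow, was at 771, 705, 695 and 635 CPM against 253, 217, 285 and 258 CPM (1.48 ± 0.16, adjusted p = 9e-06). Its relative Cxcr1 was at 26.9, 35.3, 23.1 and 18 CPM against 1.59, 0.804, 0 and 2.60 CPM (4.37 ± 0.55, adjusted p = 3.01e-05). With 107 counts over BMDM_T and 4 over BMDM_H, the size of the Cxcr1 ratio is uncertain. Ccr1 was at 244, 212, 105 and 122 CPM against 103, 63.5, 65.1 and 65.1 CPM (1.17 ± 0.24, adjusted p = 0.00633, and 0.092 without BMDM_H 3 and 4). Receptors of monocytes were those that fell. Ccr2, by which classical monocytes leave the marrow, was at 114, 95, 109 and 142 CPM against 261, 258, 180.4 and 289 CPM (-1.11 ± 0.17, adjusted p = 0.000367), and Cx3cr1 at 10.8, 14.3, 6.93 and 8.12 CPM against 38.2, 25.7, 37.2 and 36.4 CPM (-1.72 ± 0.28, adjusted p = 0.00074). None of these 5 genes overlapped between groups.

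In adhesion and homing 5 of 39 tested genes rose and 4 fell, and with the replicate block 8 of 33 rose and 6 fell. With BMDM_T 2 or 4 or BMDM_H 2, 3 or 4 left out in turn 2 to 3 rose, as Cd177, Ceacam10 and Itgb1bp1 each lost the call in 1 or more of these settings, and with BMDM_H 2 or 3 left out 2 fell. Selplg, PSGL-1, the leukocyte ligand of selectins, rose to between 1019 and 1685 CPM from between 534 and 759 CPM (0.99 ± 0.18, adjusted p = 0.00193, and 0.0599 without BMDM_H 3 and 4). Selp, P-selectin of platelets and endothelium, was at 31.2, 21.0, 15.0 and 21.6 CPM against 3.98, 4.83, 1.86 and 2.60 CPM (2.55 ± 0.45, adjusted p = 0.00151). Of the megakaryocyte and platelet list 6 genes were tested and 1 rose, Selp itself. Vcam1, of macrophages and stroma, fell to between 5.41 and 11.5 CPM from between 24.2 and 34.6 CPM (-1.84 ± 0.31). Cldn13, a claudin of red cell precursors, had 0 counts in BMDM_T and 64 in BMDM_H, and was at least 25.5-fold lower, taking 3 counts summed over BMDM_T as the floor. Among pattern recognition genes 3 of 32 tested rose and 1 fell, and with the replicate block 6 of 26 rose and 1 fell. The adaptor Myd88 was at 457, 352, 413 and 315 CPM against 234, 149.6, 197 and 169 CPM (1.03 ± 0.17, adjusted p = 0.000785). Tlr1, a partner of Tlr2, rose to between 31.6 and 50.4 CPM from between 7.81 and 14.5 CPM (1.83 ± 0.33), and Lbp, the lipopolysaccharide-binding protein, to between 209 and 327 CPM from between 88.5 and 156 CPM (0.93 ± 0.18, and adjusted p = 0.0528 without BMDM_H 3 and 4). The inflammasome sensor Naip5 fell (-1.75 ± 0.40, adjusted p = 0.0103).

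**Figure D4:**
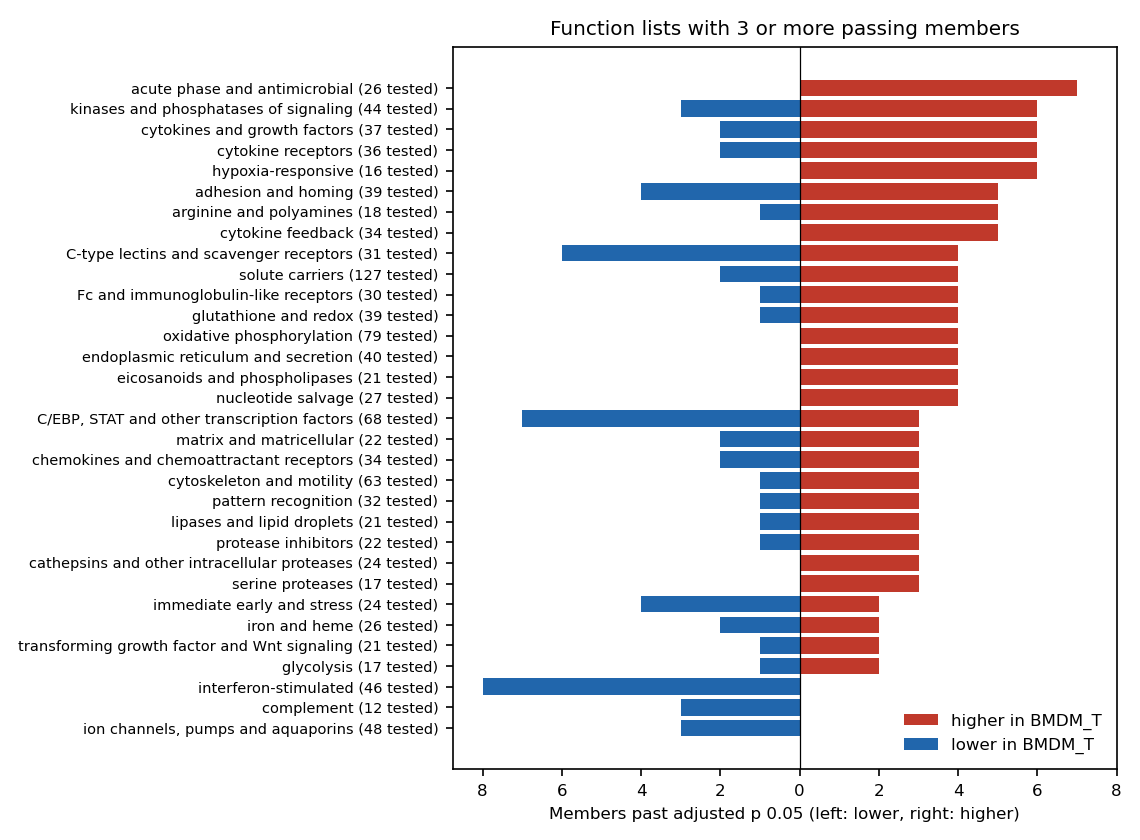
Bars count the members of each function list that passed an adjusted p of 0.05, to the right where higher and to the left where lower in BMDM_T, with the number tested beside each name. Lists with 3 or more passing members are drawn, and the interferon-stimulated list has 8 falls and no rise.

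Interferon-stimulated genes gave 8 falls and no rise among 46 tested (list median -0.29). In the fit with the replicate block 2 of 41 rose and 10 fell, and without BMDM_H 1, 4 fell. Ifi27l2a was at 718, 858, 922 and 768 CPM against 2503, 1441, 1160.4 and 1579.6 CPM (-1.04 ± 0.21, adjusted p = 0.00459), and Bst2, tetherin, at 32.3, 29.4, 24.2 and 38.8 CPM against 90.7, 52.3, 74.4 and 85.9 CPM (-1.25 ± 0.21). Mndal also fell (-1.82 ± 0.37) and kept its call in each leave-out. BMDM_H 1 was the highest healthy library for Ifi27l2a and Bst2. The remaining 5 rested more on single libraries: Ifit3 (-1.57 ± 0.33; adjusted p = 0.00567, and 0.0521 without BMDM_H 1), Mx2 (-1.49 ± 0.34; adjusted p = 0.0114, and 0.0799 without BMDM_H 1), Phf11b (-1.43 ± 0.33; adjusted p = 0.0125, and 0.0972 without BMDM_H 1), Ifi203 (-2.36 ± 0.53; adjusted p = 0.00942, and 0.0761 without BMDM_H 2) and the factor Irf7 (-0.79 ± 0.21; adjusted p = 0.0279, and 0.0527 to 0.134 with BMDM_T 1, 3 and 4 and BMDM_H 1 and 4 left out in turn, and 0.0515 without BMDM_H 3 and 4). The Ifitm genes, also inducible by interferon, rose and are on the acute-phase list. Monocyte genes fell with this list (sums of 6612 to 7361 CPM in BMDM_T and 8926 to 11474 CPM in BMDM_H), and their part in it was not tested.

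Of 68 tested transcription factors 3 rose and 7 fell. With the replicate block 6 of 61 rose and 7 fell, and with BMDM_T 1 or 3 or BMDM_H 2 or 4 left out in turn 4 fell. Klf4, needed for monocyte formation, was at 30.1, 46.2, 36.9 and 44.2 CPM against 73.2, 113, 80.0 and 115 CPM (-1.24 ± 0.20, adjusted p = 0.000572), Irf5, a factor of macrophage activation, at 101, 123, 137 and 134 CPM against 244, 267, 229 and 325 CPM (-1.09 ± 0.17, adjusted p = 0.000616), and Lmo2, of early blood and red cell formation, at 27.7 to 31.6 against 53.9 to 84.5 CPM (-1.16 ± 0.22, adjusted p = 0.00315). Mxd1, which opposes Myc and rises in maturing neutrophils, was at 494, 429, 391 and 389 CPM against 237, 225, 314 and 245 CPM (0.75 ± 0.16, adjusted p = 0.00945), and Nfil3 at 92.0 to 129 against 33.8 to 65.1 CPM (1.09 ± 0.21, adjusted p = 0.00315). Groups did not overlap in these 5 genes. Among 24 tested immediate early and stress genes 2 rose and 4 fell. Neither rise, of Hsph1 (a chaperone gene; adjusted p = 0.0411, and 0.0633 to 0.156 with BMDM_T 2, 3 and 4 and BMDM_H 1, 2 and 3 left out in turn) and Ier3 (adjusted p = 0.0139, and 0.0507 to 0.0633 with BMDM_T 3 and BMDM_H 1 and 2 left out in turn), kept its call in each leave-out. Nr4a1 was at 67.8, 142, 147 and 61.3 CPM against 327, 406, 353 and 401 CPM and Atf3 at 23.7, 58.0, 41.6 and 19.8 CPM against 119, 166, 128 and 91.1 CPM, while Fos (-0.70 ± 0.19; adjusted p = 0.0334, and 0.0669 to 0.0984 with BMDM_T 1 and 4 and BMDM_H 1, 2 and 3 left out in turn, and 0.0914 without BMDM_H 3 and 4) and Fosb (-1.09 ± 0.27; adjusted p = 0.0231, and 0.0538 to 0.115 with BMDM_T 1 and 4 and BMDM_H 2, 3 and 4 left out in turn, and 0.132 without BMDM_H 3 and 4) fell as well. Nr4a1 also marks patrolling monocytes.

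Most lists of general machinery, MHC and checkpoint genes had no call or few, where 4.82% of all tested genes passed. At that share, 0 calls in a list of 10 to 16 genes says little about its members. In edgeR none passed among 76 genes of the cytosolic ribosome, 44 of ribosome biogenesis, 46 of the proteasome, 38 of DNA replication, 50 of mitosis, 64 histone and DNA modifiers, 15 of the TCA cycle, 16 of MHC class I, 10 of MHC class II and 14 of checkpoint and costimulation. In that order, 5, 3, 5, 8, 2, 3, 2, 1, 2 and 4 of them had an unadjusted p under 0.05. DESeq2 called 1 ribosomal and 1 replication gene higher and 2 MHC class II genes lower, and limma-voom called none in these lists. With the replicate block a few passed in 7 of these lists: 2 of 73 rose and 0 fell in the ribosome, 1 of 45 rose and 0 fell in the proteasome, 2 of 37 rose and 0 fell in replication, 2 of 61 rose and 1 fell among the modifiers, 1 of 15 rose and 0 fell in the TCA cycle, 0 of 14 rose and 1 fell in MHC class I and 0 of 8 rose and 2 fell in MHC class II. In endoplasmic reticulum and secretion 4 of 40 tested genes rose (10%) and none fell, and with the replicate block 7 of 37 rose and 2 fell. Edem2 and Pdia3 kept their call in each leave-out. Calr (adjusted p = 0.0139, and up to 0.0544 without BMDM_H 3) and Ddit3 (adjusted p = 0.0115, and up to 0.0504 without BMDM_H 2) did not. Of 79 tested genes of oxidative phosphorylation 4 rose (with the replicate block 7 of 75 rose and 0 fell), of which Atp5k kept its call in each leave-out (0.77 ± 0.17). Cox7a2 (adjusted p = 0.0405, and 0.0538 to 0.117 with BMDM_T 2, 3 and 4 and BMDM_H 1, 2 and 4 left out in turn), Cox7b (adjusted p = 0.0224, and 0.0532 to 0.0861 with BMDM_T 2 and BMDM_H 1, 2 and 4 left out in turn) and Uqcr11 (adjusted p = 0.049, and 0.069 to 0.123 with BMDM_T 1, 2, 3 and 4 and BMDM_H 1, 2 and 3 left out in turn) did not.

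In the azurophil granule list 7 of 11 tested genes rose, and the list median was 0.90. Mpo, myeloperoxidase, was at 1793, 1625, 1526 and 1863 CPM in BMDM_T and 453, 515, 621 and 379.9 CPM in BMDM_H (1.79 ± 0.19, adjusted p = 6.63e-06). In the late neutrophil list 12 of 26 tested genes rose (with the replicate block 18 of 26 rose and 1 fell, and 7 rose without BMDM_H 3 and 4). Its sums overlapped, at 102869 to 134694 CPM in BMDM_T and 58402.5 to 107111 CPM in BMDM_H. Lrg1, a leucine-rich glycoprotein of neutrophil granules, was at 4587, 2728, 2502 and 2949.7 CPM against 894, 779, 822 and 856 CPM (1.93 ± 0.24, adjusted p = 3.01e-05), and the membrane protein gene Grina at 3754, 2809, 2722 and 2406 CPM against 1348, 879, 1363 and 1114 CPM (1.31 ± 0.18, adjusted p = 0.000125). In the specific granule list, of the stage between these, 3 of 21 rose and 1 fell. With the replicate block 6 of 21 rose and 3 fell, and with 1 marrow library left out 1 to 2 rose and 0 to 2 fell. Lactoferrin, Ltf, was at 12432 to 15376 against 14689 to 15683 CPM (adjusted p = 0.877), Ngp at 23777 to 31411 against 25706 to 40498 CPM (adjusted p = 0.481) and Camp at 29816 to 36259 against 33852 to 52159 CPM (adjusted p = 0.293, and 0.0211 with the replicate block, where it was lower in BMDM_T). The members that passed there were Hp, Ifitm6, Cd177 (0.53 ± 0.15; adjusted p = 0.0497, and 0.0643 to 0.124 with BMDM_T 1, 2, 3 and 4 and BMDM_H 2, 3 and 4 left out in turn) and, lower, the integrin gene Itgb2l (-0.72 ± 0.19; adjusted p = 0.028, and 0.0505 to 0.113 with BMDM_T 1, 2, 3 and 4 and BMDM_H 1, 2 and 3 left out in turn).

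Monocyte genes fell in 12 of 29 tested cases and rose in none (list median -0.79; 19 fell with the replicate block and 13 without BMDM_H 3 and 4). Ly6c2, which the sort antibody can bind, was at 1307, 976, 788 and 1077 CPM against 2545, 1889, 1244 and 1455 CPM, with overlap (-0.79 ± 0.22, adjusted p = 0.0382, and 0.0722 to 0.153 with BMDM_T 2, 3 and 4 and BMDM_H 1 and 2 left out in turn). The patrolling monocyte gene Ace was at 3.23, 8.40, 2.31 and 8.12 CPM against 25.5, 20.9, 22.3 and 39.0 CPM (-2.14 ± 0.38, adjusted p = 0.00151), and Ms4a4c, a membrane protein gene of monocytes, at 12.9, 15.1, 26.6 and 12.6 CPM against 77.2, 50.7, 27.9 and 33.8 CPM (-1.62 ± 0.33, adjusted p = 0.00449). Both classical and patrolling monocyte genes were therefore among the falls. Resident macrophage genes fell in 11 of 19 cases (5 without BMDM_H 3 and 4), none rose and 8 did not pass. The abundant macrophage gene Apoe was not among the falls (-0.05 ± 0.16, adjusted p = 0.923). Its mean level was 1795 CPM with a tumor and 1856 CPM without. C1qa was at 79.7, 231, 274 and 198 CPM against 390.0, 512, 630.4 and 1057 CPM (-1.71 ± 0.31, adjusted p = 0.00193, and 0.0611 without BMDM_H 3 and 4). C1qb (-1.46 ± 0.26) and C1qc (-1.25 ± 0.31; adjusted p = 0.0193, and 0.0636 to 0.0778 with BMDM_T 1 and BMDM_H 4 left out in turn, and 0.176 without BMDM_H 3 and 4) fell with it, as did the hemoglobin scavenger receptor Cd163, to between 1.08 and 3.61 CPM from between 11.2 and 33.8 CPM. The F4/80 gene Adgre1, for which low cells were sorted, was at 18.3, 10.1, 11.5 and 5.41 CPM against 28.7, 25.7, 14.9 and 23.4 CPM (-1.12 ± 0.32, adjusted p = 0.0435, and 0.0676 to 0.143 with BMDM_T 2, 3 and 4 and BMDM_H 1, 2 and 4 left out in turn, and 0.0546 without BMDM_H 3 and 4). Itgam, which encodes CD11b, was at 524 to 610.5 against 488 to 669 CPM and did not pass (adjusted p = 0.899).

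Red cell precursor genes fell in 15 of 20 tested cases and rose in none, with a list median of -3.39. Alas2, Cldn13, Epor, Hemgn, Kel, Klf1 and Slc4a1 had 0 to 3 counts over BMDM_T and passed the filter on low counts through BMDM_H. Ermap and Sphk1 were as sparse, with 1 and 2 counts over BMDM_T and 46 and 34 over BMDM_H. For such members a fall was the only outcome open, so the share of falls and the median are partly set by the filter. The abundant members Nfe2 and Prdx2, which other marrow cells also express, made up most of the list's sum. With the replicate block 8 could be tested and 4 fell, and 5 of the 10 that could be tested without BMDM_H 3 and 4 fell. Leaving out BMDM_H 2, 3 or 4 alone also lowered how many could be tested: without BMDM_H 2, 6 of 11 fell, without BMDM_H 3, 6 of 10, and without BMDM_H 4, 5 of 10. Epor, the erythropoietin receptor, had 2 counts over BMDM_T and 41 over BMDM_H, a ratio of 24.5 (95% interval 6.37 to 209). Alas2, the first enzyme of heme synthesis in red cells, had 1 count against 42, a ratio of 50.2 (95% interval 8.54 to 2031). The blood group antigen gene Kel had 0 counts against 29 and was at least 11.6-fold lower on the same floor. In BMDM_H these genes were lowest in library 1. Epor and Alas2 promoters are shown because 6 of the 11 called red cell genes with a window held the GATA motif AGATAA or its reverse complement TTATCT, in capitals. That motif occurred in 7.40% of all promoters searched, 6.98% of the higher and 10.8% of the lower ones (13 of 120).
Epor (chr9:21963527-21963826, minus strand): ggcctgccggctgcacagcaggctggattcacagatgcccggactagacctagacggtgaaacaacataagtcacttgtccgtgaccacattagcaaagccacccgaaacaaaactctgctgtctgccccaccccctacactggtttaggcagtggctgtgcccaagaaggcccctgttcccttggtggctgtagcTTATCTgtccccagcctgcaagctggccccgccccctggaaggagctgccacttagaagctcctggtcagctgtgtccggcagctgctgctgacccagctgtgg
Alas2 (chrX:150547167-150547466, plus strand): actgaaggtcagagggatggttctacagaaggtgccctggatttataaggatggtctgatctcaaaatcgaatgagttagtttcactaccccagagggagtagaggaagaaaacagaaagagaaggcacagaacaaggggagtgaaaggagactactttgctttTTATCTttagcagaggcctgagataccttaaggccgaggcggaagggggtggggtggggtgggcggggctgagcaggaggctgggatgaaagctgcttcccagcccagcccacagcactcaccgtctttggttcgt
For comparison, Aqp1, among the largest falls, held no AGATAA, and its capitals mark 2 overlapping matches to TTNCNNAA.
Aqp1 (chr6:55336049-55336348, plus strand): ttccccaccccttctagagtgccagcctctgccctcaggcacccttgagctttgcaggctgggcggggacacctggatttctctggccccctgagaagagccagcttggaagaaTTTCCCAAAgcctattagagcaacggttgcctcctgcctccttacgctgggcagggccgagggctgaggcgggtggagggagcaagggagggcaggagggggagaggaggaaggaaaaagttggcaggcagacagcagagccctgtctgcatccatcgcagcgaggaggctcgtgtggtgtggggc

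Of 19 tested genes of the B lineage, which lies outside the myeloid gate, 5 rose and none fell. Vpreb1, a surrogate light chain gene of early B cells, was at 119.5, 209, 104 and 121 CPM against 26.3, 29.0, 66.9 and 13.0 CPM (2.07 ± 0.30, adjusted p = 0.000209), and its near copy Vpreb2 at 25.8, 49.6, 28.9 and 28.0 CPM against 3.18, 1.61, 7.44 and 0 CPM (3.46 ± 0.47). Reads of the pair may be split, so the separate values are uncertain. Igll1, their partner, rose to between 28.9 and 47.9 CPM from between 5.20 and 15.1 CPM (1.86 ± 0.34, adjusted p = 0.00283), Vpreb3 to between 94.7 and 149 CPM from between 35.0 and 68.8 CPM (1.29 ± 0.23) and Mzb1, a chaperone of antibody-making cells, to between 94.7 and 184 CPM from between 37.4 and 89.3 CPM (1.20 ± 0.25). The list summed to 675 to 1269.9 CPM in BMDM_T and 371 to 815 CPM in BMDM_H, with BMDM_T 2 the highest library for all 5 genes. Of 6 tested genes of mammary tumor epithelium none passed in edgeR, DESeq2 or limma-voom (1 with an unadjusted p under 0.05), and the list summed to 93.3 to 145 CPM against 89.3 to 145 CPM. Of the basophil and mast cell list 1 of 4 rose, Hdc, histidine decarboxylase, which neutrophil precursors also express (1098, 927, 1156 and 996 CPM against 554, 378, 569 and 567 CPM, 1.02 ± 0.23; adjusted p = 0.011, and 0.0505 without BMDM_H 2, and 0.0546 without BMDM_H 3 and 4). Of 8 tested progenitor genes none passed in these tests, 2 had an unadjusted p under 0.05, and 1 rose with the replicate block.

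**Figure D5:**
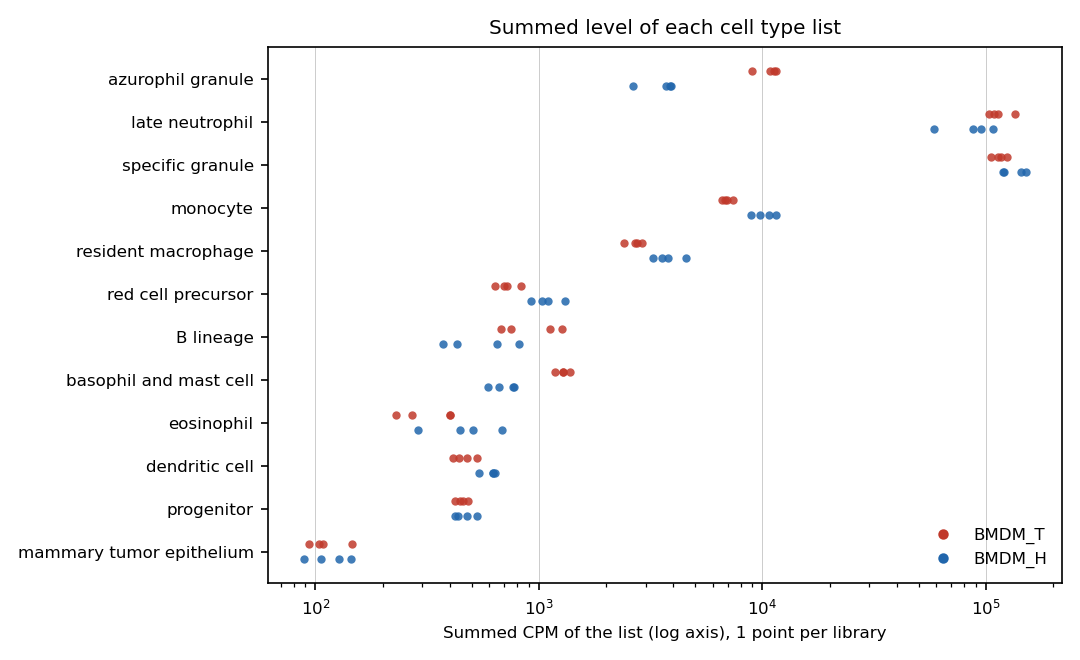
Each point is the summed CPM of a cell type list in 1 library, on a log axis, with BMDM_T in red and BMDM_H in blue. Azurophil and basophil sums lie higher in all 4 BMDM_T libraries, and monocyte, resident macrophage, red cell and dendritic cell sums lower. Late neutrophil, specific granule, B lineage, eosinophil, progenitor and tumor epithelium sums overlap between groups.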

How the data were processed

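The deposited values are raw counts per gene in 1 table of the authors. The submitters' processing notes name bcl2fastq, STAR 2.4.2a, HTSeq and the build mm10. Not given in the sources used here are the gene annotation, the strandedness, the collapsing of molecular identifiers and any gene filter. Of 24421 lines 10207 have a gene symbol. The 11 libraries of batch 1 were used, and 6 columns whose line order does not match the symbols were not used. Symbols turned into dates (17) are not named.

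Counts were analysed with edgeR 4.0.16 in R 4.3.3 (filterByExpr, TMM, glmQLFit, glmQLFTest) over BMDM_T, BMDM_H and the 3 macrophage libraries, with the contrast BMDM_T against BMDM_H and Benjamini-Hochberg adjusted p under 0.05. The SE was taken as the unshrunken log2 fold change over the root of the F statistic. CPM use TMM-scaled totals of the 7518 genes tested. Alternatives used DESeq2 1.42.0 and limma 3.58.1 (voom). The procedure was tested on simulated data.

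Each pair of replicates differed beyond sampling noise (chi-square per degree of freedom 2.67 to 6.08). That cannot show whether libraries come from separate mice, as preparations of 1 pool could differ too. Each library was counted as 1 sample. Same-numbered BMDM_T and BMDM_H libraries shared deviations from the group means across genes (r = 0.21, 0.24, 0.13 and 0.12), above the limit of 0.1 for treating numbers as pairs. What a number stands for is not in the labels. The main fit leaves this pairing out despite that limit, and the fit with the replicate block (662 calls against 362) is given as an alternative.

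Named genes are the 12 largest rises and 12 largest falls among calls without overlap that reach 30 CPM in the higher group and 10 counts in both, the 6 calls per direction with the largest difference in CPM, up to 5 calls with 0 counts in a group, passing list members, up to 3 abundant members per list that did not pass, and the sort antigens. The 69 lists, the rule and the promoters were chosen with earlier results of these data known. Promoters are RefSeq windows on GRCm38.p6.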

Additional observations from a re-analysis of the deposited data

Results flagged for a closer look

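For 330 sets of 4 libraries, 1 per named gene and group, the gap of the highest or lowest library to its neighbour was compared with the whole range of the set. In 21 sets its share of the range exceeded Dixon's critical value, which chance gives in about 1 in 20. BMDM_T 1 was high in Gda (198 CPM), Csf2rb (306 CPM), Ctsd (3049 CPM) and Slc4a1 (1.08 CPM, 1 count). BMDM_T 2 was high in the B lineage genes Vpreb1 (209 CPM) and Vpreb2 (49.6 CPM), in Socs2 (22.7 CPM) and in Alas2 (0.840 CPM, 1 count), and BMDM_T 3 in Epor (2.31 CPM). BMDM_H 1 was high in Csf3r (554 CPM), Ccr1 (103 CPM) and Ifitm6 (1264 CPM). BMDM_H 2 was low in Il1r2 (53.1 CPM), Txn1 (984 CPM), Cx3cr1 (25.7 CPM) and Hdc (378 CPM). BMDM_H 3 was low in Pla2g7 (126 CPM) and high in Nos2 (1.86 CPM, 1 count). BMDM_H 4 was high in Saa3 (13.0 CPM) and C1qc (252 CPM) and low in Lbp (88.5 CPM). The causes were not tested.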

How the results depend on the processing

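Against 362 calls (212 higher, 150 lower), the fit with the replicate block gave 662 (380 and 282), and leaving out both BMDM_H 3 and 4 gave 179 (96 and 83). Thinning all libraries to the lowest total gave 229 calls, 84 of them lower, which shows what depth limits. Leaving out 1 library at a time gave 238 to 409 calls, 143 to 239 higher and 95 to 170 lower. RLE factors (358), DESeq2 (391), limma-voom (303), no filter on low counts (383), the 8 marrow libraries alone (347) and total-count scaling (373) stayed within 1.5 times. Of 154 named genes that passed, 82 passed in every setting that tested them, and none of these changed sign. The block ended the call of none of them, RLE factors of 1, the fit without a filter of 3, DESeq2 of 6, the 8 marrow libraries of 7, total-count scaling of 18, limma-voom of 18, thinning of 24 and the loss of BMDM_H 3 and 4 of 56. Thinning took the calls of Zfp36l1, Csf2rb2, Pla2g7, Cx3cr1 and Vcam1, limma-voom those of Pim1, BC100530, Cd163 and Bnip3. Itgam, which never passed, had a log2 fold change of -0.06, and between -0.13 (without BMDM_H 1) and 0.023 (without BMDM_H 3) with 1 library left out, and 0.019 without both BMDM_H 3 and 4. Mmp8, which did not pass, had a log2 fold change of 0.64, and between -0.030 (without BMDM_T 1) and 0.89 (without BMDM_T 3) with 1 library left out. The cause of these shifts was not tested, apart from the fewer samples or counts that some settings hold.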

Other observations

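Of the 166 calls on no list, 10 are given here that were chosen after their values were seen. Naprt, nicotinate phosphoribosyltransferase, which makes NAD from nicotinic acid, was at 34.5, 41.2, 42.7 and 33.4 CPM in BMDM_T 1 to 4 and 11.1, 13.7, 9.30 and 5.20 CPM in BMDM_H 1 to 4 (log2 fold change 1.80 ± 0.27 SE, edgeR adjusted p = 0.000316). Irg1, the enzyme that makes itaconate in activated myeloid cells, was at 30.1, 24.4, 18.5 and 21.6 CPM against 7.96, 2.41, 0 and 2.60 CPM (2.54 ± 0.45, adjusted p = 0.00151). Neither gene overlapped between groups. Enzymes of glycerolipids, sphingolipids and sterols stood beside them. Agpat9, an acyltransferase at the first step of triglyceride synthesis, rose to between 17.3 and 50.6 CPM from between 0 and 7.44 CPM (2.48 ± 0.46), the sphingomyelin phosphodiesterase gene Smpd5 to between 24.4 and 42.0 CPM from between 2.41 and 10.3 CPM (2.41 ± 0.40) and Soat2, which esterifies cholesterol, to between 10.4 and 22.7 CPM from between 0 and 3.72 CPM (3.24 ± 0.57).

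Tspo, a cholesterol- and porphyrin-binding protein of the outer mitochondrial membrane, was the most abundant of the 10, at 4731, 3496, 4288 and 4015 CPM against 1878, 1848, 1733 and 1481 CPM (1.25 ± 0.16, adjusted p = 3.52e-05). Sbno2, a STAT3-induced corepressor, was at 878, 602, 738 and 778 CPM against 431, 245, 359 and 323 CPM (1.14 ± 0.20, adjusted p = 0.00157). The endosomal adaptor gene Rufy4 rose to between 45.0 and 67.8 CPM from between 0 and 12.7 CPM (2.67 ± 0.37) and the semaphorin gene Sema6b to between 31.1 and 56.6 CPM from between 5.20 and 11.2 CPM (2.51 ± 0.33). Cdkn2d, an inhibitor of the kinases CDK4 and CDK6 in maturing myeloid cells, rose to between 619 and 834 CPM from between 375 and 517 CPM (0.70 ± 0.16, adjusted p = 0.0104, and 0.0645 without BMDM_H 3 and 4). All 10 kept their call with each marrow library left out in turn.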
